A study of Mus musculus
Mus spretus with 18 samples.

Results

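The 5 ceramide synthase genes named by symbol, Cers1, Cers2, Cers4, Cers5 and Cers6, were taken from every table of skipped exon (SE) events and from the expression table. They are 5 of 38924 genes with expression values and hold 68 of 125200 SE events at 35 different exon positions. An SE event is an exon with its flanking exons, so 1 exon can appear in several events (forms). Cers2 holds 22 events, Cers4 19, Cers5 17, Cers6 9 and Cers1 1. Of 2243 retained intron events in fibroblasts, 2 lie in these genes. The genes lie on chromosome 2 (Cers6, 68861145 to 69114284), chromosome 3 (Cers2, 95314771 to 95323599), chromosome 8 (Cers4, 4492818 to 4529603, and Cers1, 70315775 to 70331588) and chromosome 15 (Cers5, 99735592 to 99772515, minus strand) of GRCm38 (mm10).

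Ceramide synthases are enzymes of the endoplasmic reticulum membrane that join a fatty acyl chain to a sphingoid base, the step that makes the ceramide backbone of sphingomyelin and glycosphingolipids. The family members differ in the acyl chain they prefer: Cers1 uses stearoyl chains and is known from neurons, Cers2 uses very long chains and is known for its abundance in liver, Cers4 uses long chains, and Cers5 and Cers6 use palmitoyl chains. Which members a tissue expresses is therefore known to bear on the chain lengths of its ceramides.

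Messenger RNA was read by strand-specific sequencing in F1 hybrids of a female C57BL/6J and a male SPRET/EiJ mouse, in which reads carrying a strain difference can be assigned to an allele. Cerebral cortex, heart, kidney, lung, spleen and liver came from female animals aged 8 weeks, and embryonic stem cells (ESC) came from the same cross, with 2 libraries each. F1 fibroblasts were treated for 4 h with 0.1 µM pladienolide B (PladB), an inhibitor of the SF3B complex of the spliceosome, or with an equal amount of its solvent DMSO, with 2 libraries each. The comparisons address tissue differences, allelic differences within a tissue and the effect of PladB. The 2 ESC libraries are distinct clones and the fibroblasts are a single line, so neither stands for several animals. The liver libraries were taken from an earlier study of the same animals, and their labels give the first parent as C57BL/7J and C57BL/8J. Before the authors trimmed reads to a common length, heart, kidney and cortex shared a longer read and spleen, lung and ESC a shorter one.

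Libraries held 46558287 to 129496306 SE junction reads in the tissues and 129067054 to 151755602 in the fibroblasts, with 10338947 to 46793808 reads per allele in a tissue library and 27056558 to 48555783 in a fibroblast library. Of 24 marker genes of the 7 tissues and of fibroblasts, 23 were highest in the group they mark. The exception was Thy1, at a mean of 5.62 TPM (transcripts scaled to a fixed library total) in DMSO fibroblasts against 1008 TPM in cortex. The 3 heart markers summed to 311 and 237 TPM in lung against 19987 and 19436 in heart, with Myh6 the most abundant, and their part in the lung values was not tested. With 2 libraries in each group, p-values rest on the spread between these libraries, moderated towards the spread of all genes or events. For splicing, a group with under 5 reads of the rarer form adds nothing to the spread of its event. In the organs fewer cells of a type and less RNA per cell cannot be told apart.

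Expression separated the members by tissue, with Cers1 high in cortex, Cers2 high in liver, lung, kidney and spleen, and Cers4 and Cers5 lowest in liver. All 5 genes passed the test over the 7 tissues (limma, Benjamini-Hochberg adjusted p below 0.05), beside 99.3% of all genes tested. Of the 105 pairs of tissues over the 5 members, 66 passed with a log2 difference of at least 1, beside 56.2% of all pairs of all genes. Cers1 and Cers6 passed in 15 of 21 pairs each, Cers4 in 13, Cers2 in 12 and Cers5 in 11.

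**Figure D1:**
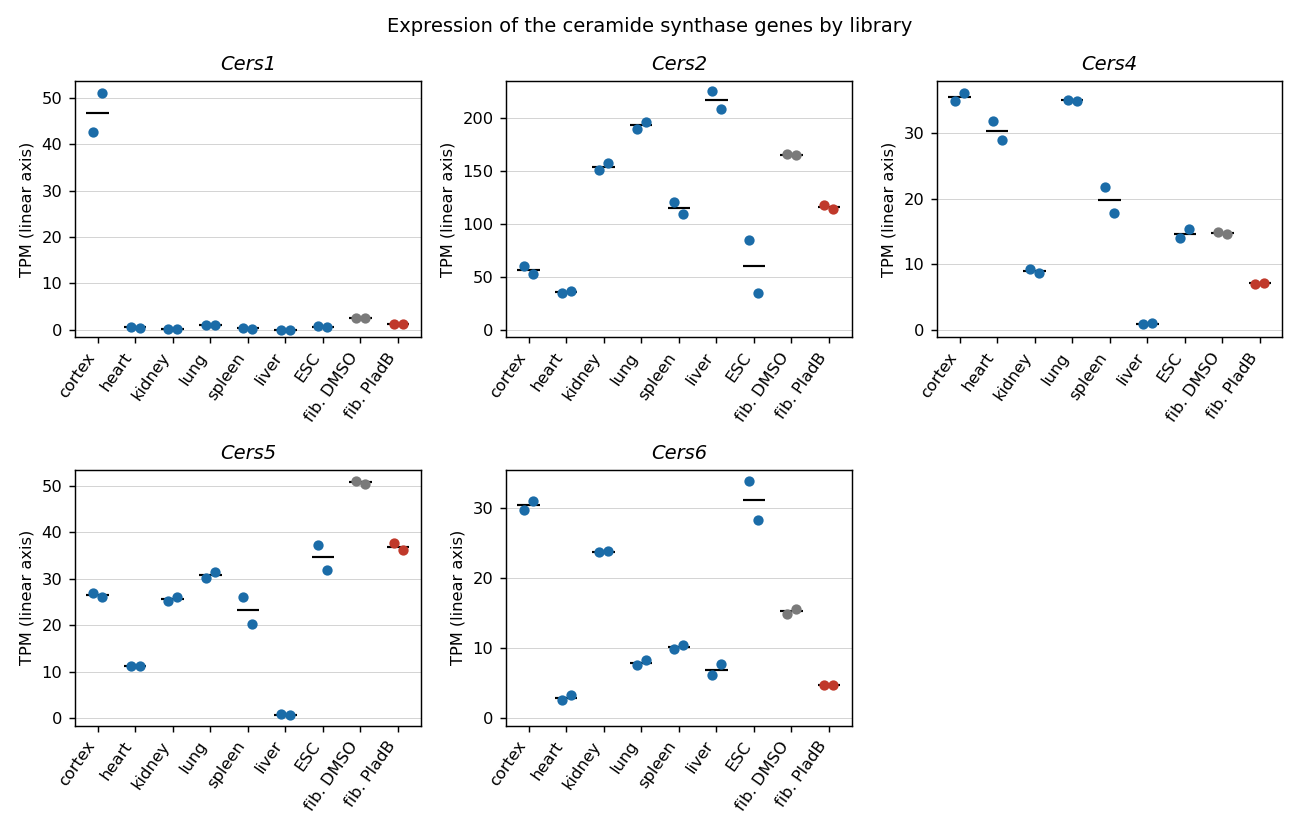
Expression of each ceramide synthase gene in TPM (linear vertical axes, scaled separately for each gene) by group. Points are the 2 libraries of a group and bars their mean, and Cers1 reaches 42.5 and 51.0 TPM in cortex while no other group exceeds 2.65 TPM.

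Cers1, the stearoyl-preferring enzyme, was at 42.5 and 51.0 TPM in the 2 cortex libraries. It was at 1.13 and 1.13 TPM in lung, 0.724 and 0.623 in ESC, 0.704 and 0.492 in heart, 0.461 and 0.279 in spleen, and 0.156 and 0.203 in kidney. In liver it was at 0.00321 TPM in 1 library and listed at 0 in the other. Both cortex libraries stood above every other library, and the next tissue in order, lung, was lower by a log2 difference of 5.24 ± 0.24 (SE; adjusted p = 3.49e-08, limma). The neighbours lung and ESC, ESC and heart, heart and spleen, and spleen and kidney did not pass in their order. Cers1 shares its locus with Gdf1, a growth factor gene that starts at the same base, and reads over both genes were shared equally by the authors' counting. The ratio of Gdf1 to Cers1 TPM was 1.11 to 1.18 in the 16 libraries with at least 0.1 TPM of Cers1, so the level of Cers1 and that of Gdf1 cannot be told apart here.

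Cers2, the enzyme for very long chains, was the most abundant member by deposited TPM, a level per length, in each of the 18 libraries. In cortex library 2 it was at 52.8 TPM against 51.0 for Cers1. The Cers1 value depends on the equal sharing of reads with Gdf1, so the order of Cers1 and Cers2 in cortex is not settled. The levels of Cers2 were 226 and 208 TPM in liver, 190 and 196 in lung, 151 and 157 in kidney, and 121 and 109 in spleen. They were 85.3 and 35.0 TPM in ESC, 60.0 and 52.8 in cortex, and 34.7 and 36.3 in heart. The first 4 tissues lay above cortex, heart and ESC without overlap, and among those 4 no library of a tissue overlapped one of its neighbour. The log2 differences between these neighbours, 0.17 for liver over lung, 0.33 for lung over kidney and 0.42 for kidney over spleen, did not pass (SE 0.31, adjusted p from 0.252 to 0.657, limma), with a spread shared over all tissues. That SE was 0.078 when ESC clone 2 was left out, where the adjusted p was 0.0796, 0.00584 and 0.00126 in the same order, still at differences under 1. Centred on the median, liver exceeded lung by 1.51 (adjusted p = 0.000763, limma). Spleen exceeded ESC by a log2 difference of 1.07 ± 0.31 (adjusted p = 0.0103, limma), and this pair did not pass when ESC clone 2 was left out (0.43) or when the first spleen library was left out (0.99, adjusted p = 0.0553). The ESC clones differed 2.44-fold in Cers2. The summed TPM of the 3 fibroblast markers differed in the same direction between these clones, at 40.2 and 16.1, with Col1a1 at 19.6 and 4.77, Col1a2 at 3.40 and 0.189 and Thy1 at 17.2 and 11.2, and their part in the Cers2 difference was not tested.

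Cers4 was high in cortex at 34.9 and 36.2 TPM, lung at 35.1 and 34.9 and heart at 31.8 and 28.9. It was intermediate in spleen at 21.8 and 17.9, ESC at 13.9 and 15.4 and kidney at 9.25 and 8.64 TPM, and low in liver at 0.918 and 0.967. The 3 highest tissues were not distinguished by the test, and kidney exceeded liver by a log2 difference of 3.12 ± 0.11 (adjusted p = 7.66e-09, limma). Cers5, a palmitoyl-preferring enzyme, ran from 37.3 and 32.0 TPM in ESC through 30.2 and 31.5 in lung, 26.9 and 26.0 in cortex, 25.3 and 26.1 in kidney and 26.1 and 20.4 in spleen. It was at 11.3 and 11.2 TPM in heart and 0.876 and 0.831 in liver, below all other tissues. Heart exceeded liver by 3.57 ± 0.12 on the log2 scale (adjusted p = 4.38e-09, limma), while the 5 pairs of heart with higher tissues did not reach a log2 difference of 1 once libraries were centred on their median.

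Cers6, the other palmitoyl-preferring enzyme, was highest in ESC at 33.9 and 28.3 TPM, cortex at 29.7 and 31.0 and kidney at 23.7 and 23.8. It was at 9.84 and 10.5 TPM in spleen, 7.57 and 8.26 in lung, 6.18 and 7.72 in liver and 2.60 and 3.30 in heart. Kidney exceeded spleen by a log2 difference of 1.21 ± 0.15 (adjusted p = 4.62e-05) and liver exceeded heart by 1.21 ± 0.15 (adjusted p = 4.6e-05; limma for both). Centred on the median, Cers6 no longer reached a log2 difference of 1 for cortex minus liver (0.66) or kidney minus liver (0.61). The same held for liver minus ESC (-0.51) and heart minus lung (-0.79). Lung minus liver, at 0.19 as deposited, was -1.15 when centred and passed (adjusted p = 5.86e-05, limma). Cers5 and Cers6 stood in a different order over tissues, with Cers5 in heart above its level in liver and Cers6 below it.

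As a share of the summed TPM of the 5 genes, Cers2 made up 96.6% and 95.6% in liver, about 72% in lung (72.0% and 72.1%) and kidney (72.1% and 72.8%), and 30.9% and 26.8% in cortex. In heart Cers2 took 42.8% and 45.2% and Cers4 39.3% and 36.1%. Cortex was the tissue in which all 5 genes held more than 10% of the sum, the smallest being Cers5 at 13.9% and 13.2%. The cortex shares rest on the Cers1 level, which cannot be told apart from that of Gdf1. Centring libraries on their median moved liver by a log2 value of 1.46 and heart by 0.73 against cortex. Of the 66 pairs, 52 also passed after that centring, none changed sign and 6 others passed.

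The other sphingolipid genes, from the entry of serine into the pathway to the breakdown of sphingosine 1-phosphate, were read from the same fits. In the tissues 36 of them were above the TPM filter, and 36 of 36 passed the test over tissues, beside 99.3% of all genes. Without the filter 37 of 37 passed. Ugt8a, which makes galactosylceramide, was at 83.6 and 79.0 TPM in cortex and 0.0903 and 0.0547 in liver. Smpd3, a neutral sphingomyelinase, was at 51.3 and 57.6 TPM in cortex and 0.121 and 0.0491 in ESC. Sgpp2, a phosphatase of sphingosine 1-phosphate, was at 27.0 and 25.2 TPM in kidney and 0.0804 and 0.163 in heart, and Sptssb, a small subunit of serine palmitoyltransferase, was at 13.2 and 10.2 TPM in kidney and listed at 0 in both heart libraries. In liver, 97 of 216 pairs of pathway genes with other tissues passed as lower and 23 as higher, against 21 and 4 of 30 pairs of the 5 members, beside 54.1% and 9.8% of pairs of all genes. Centred on the median, the split of the pathway in liver turned to 46 lower and 72 higher, while the members stayed mostly lower (16 lower and 8 higher), beside 27.4% and 25% of all genes. In heart, 107 of 216 pathway pairs passed as lower and 20 as higher, and 16 and 6 of 30 member pairs, beside 34.3% and 17.8% of all genes. Centred, heart had 77 lower and 33 higher pathway pairs and 9 and 8 member pairs, beside 24.4% and 22% of all genes. Kidney went the other way, with 87 pathway pairs higher and 26 lower beside 26.2% and 23% of all genes. Centred, kidney had 82 and 27, beside 22.6% and 22.5%. Cortex had 87 higher and 30 lower (40.3% and 13.9%) beside 39% and 20% of all genes (65 and 45 centred, beside 31.3% and 24.9%). Lung had 80 and 26 (37% and 12%) beside 32.6% and 19.4% (68 and 32 centred, beside 25.8% and 22%). Spleen had 42 and 56 (19.4% and 25.9%) beside 32.6% and 22% (27 and 75 centred, beside 24.8% and 26.5%). ESC had 61 and 58 (28.2% and 26.9%) beside 38.7% and 23.8% (35 and 80 centred, beside 27.8% and 31.7%). Cers3, the remaining family member, known from skin and testis, was at most 2.03 TPM, in ESC clone 1, with 0.605 TPM in clone 2 and 1.21 and 1.11 TPM in lung.

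Over the 14 tissue libraries the expression profile of Cers1 was most like that of Gdf1 (Pearson r = 0.9998 on log2 values). The closest profile to Cers2 was that of Abcc3 (r = 0.962), an organic anion transporter, and those closest to Cers4, Cers5 and Cers6 were Ercc1 (r = 0.982), Zmiz1 (r = 0.986) and Pik3c2a (r = 0.978), among 22475 genes compared. Between members, Cers4 and Cers5 were most alike (r = 0.848). These coefficients describe 14 libraries of 7 tissues and carry no test.

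Splicing of the members was mostly constitutive in the tissues. Percent spliced in (PSI) was the share of the inclusion form after correction for effective length, and an event was taken as expressed with at least 20 informative reads in both libraries. Of 42 member events listed in the tissues, 40 were expressed in at least 1 tissue, 22 of them in 1 tissue only and 18 in 2 or more. Of the 40, 37 stayed above 0.9 in every library of the tissues that expressed them. The most read events of each gene show this, with PSI of 0.991 and 0.999 for the 181-bp exon of Cers1 in cortex. The 119-bp exon of Cers2 lay between 0.984 and 1 in its 5 tissues, the 51-bp exon of Cers4 between 0.985 and 1 in 6, the 129-bp exon of Cers5 between 0.981 and 1 in 6 and the 131-bp exon of Cers6 between 0.976 and 1 in 3. A table lists an event only where both forms were read, so an absent event is one that was not listed there.

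Exon lengths were shared across the family: exons of 51, 58, 93, 107 and 129 bp occurred in Cers2, Cers4, Cers5 and Cers6, and those of 106 and 131 bp in Cers5 and Cers6. Outside the range above 0.9 were 3 member events, of which 2 differed widely between tissues. The first was a 107-bp exon of Cers5 (chr15:99737547-99737653, minus strand), which stood apart from the other 107-bp exon of that gene at 99739406 to 99739512. The second was a 24-bp exon of Cers6 (chr2:69105743-69105766). No coding annotation was used here, so whether these exons are coding was not analysed.

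The 107-bp exon of Cers5 was included in cortex, included in about equal measure with skipping in heart, and skipped elsewhere. Its PSI was 0.914 and 0.908 in cortex, from 996 inclusion and 47 skipping reads and from 873 and 44. In heart it was 0.466 and 0.479, from 406 and 233 and from 501 and 272 reads. The remaining tissues were all low: ESC 0.0491 and 0.0658, lung 0.0319 and 0.0250, spleen 0.0237 and 0.0214, kidney 0.0180 and 0.0234, and liver 0.0313 and 0.0133, the last from 33 and 38 reads. Cortex and heart overlapped neither each other nor any other tissue.

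The largest difference between tissue means was 0.890 (adjusted p = 1.48e-16, quasi-binomial F test with limma moderation, Benjamini-Hochberg over all events). It exceeded that of 98.7% of the 11655 events tested, and 155 events were larger. Of the 3 member events tested, 2 passed with a difference of at least 0.1, beside 40.2% of all events. All 11 pairs of cortex or heart with another tissue, or with each other, passed, and the other 10 pairs did not, beside 19.4% of all pairs of all events. Against ESC, kidney differed by -0.0368 (adjusted p = 0.00285), spleen by -0.0349 (0.00561) and lung by -0.0290 (0.0131), differences smaller than 0.1. The summed TPM of the 3 cortex markers was 49.9 and 37.4 in heart against 1833 and 2049 in cortex, carried by Slc17a7 at 49.8 and 37.0, while Snap25 was at 0 and 0.181 and Gfap at 0.114 and 0.152 in heart.

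**Figure D2:**
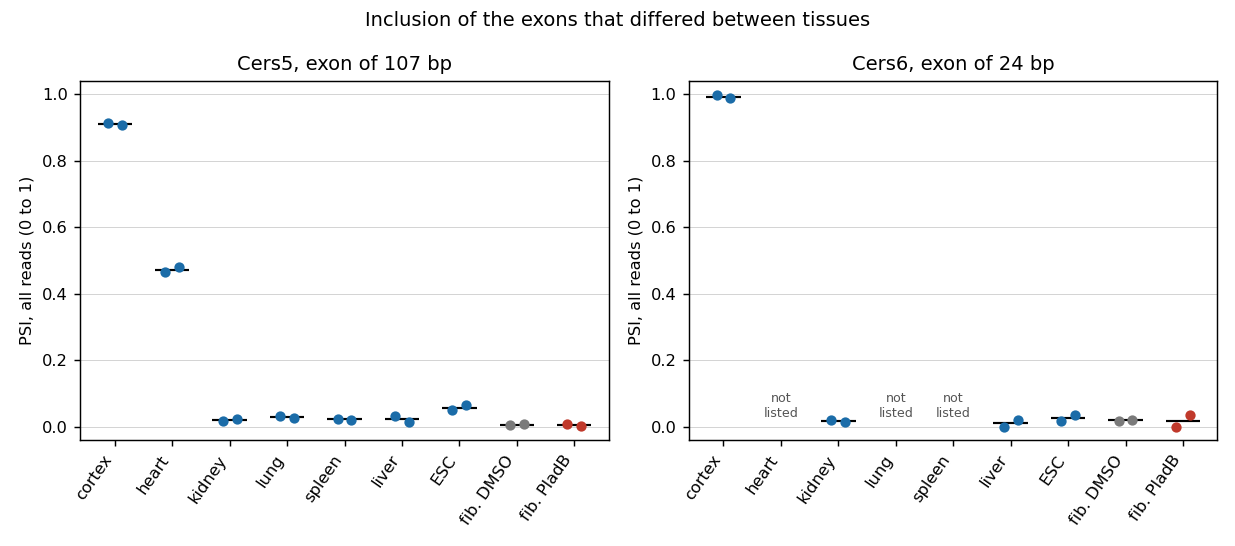
PSI from all reads (vertical axis, 0 to 1) for the 107-bp exon of Cers5 and the 24-bp exon of Cers6 by group. Points are the 2 libraries and bars their mean, with cortex near 0.911 and heart near 0.473 for Cers5 and cortex at 0.993 for Cers6, and groups where the event was not listed are marked.

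The 24-bp exon of Cers6 was a microexon whose length is a multiple of 3. Its PSI in cortex was 0.997 and 0.989, from 380 inclusion and 1 skipping read and from 369 and 3. It was 0.0161 and 0.0336 in ESC, 0.0195 and 0.0138 in kidney, and 0 and 0.0211 in liver, the last from 35 and 73 reads. The event was not listed in heart, lung or spleen. Cortex lay above the other tissues without overlap, with a largest difference of 0.982 (adjusted p = 1.68e-11, quasi-binomial F test with limma moderation), and 3 of the 11655 events had a larger one. All 3 pairs of cortex with another tissue passed and the 3 pairs among ESC, kidney and liver did not.

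The events closest to the Cers6 exon over its 4 tissues were exons of Synj1, a phosphoinositide phosphatase, Madd and Dtnb. The Synj1 exon was of 24 bp (chr16:90940473-90940496), with a mean absolute difference in PSI of 0.0105. The Madd exon was of 63 bp (chr2:91155013-91155075) with 0.0115, and the Dtnb exon of 21 bp (chr12:3754096-3754116) with 0.0152. They were drawn from 4413 events expressed in these tissues.

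The third event was a 51-bp exon of Cers5 (chr15:99741609-99741659), in the form with flanking exons of 129 and 58 bp. Its PSI was 0.897 and 0.911 in cortex, 0.969 and 0.976 in spleen and 0.991 and 0.976 in ESC. A 93-bp exon (chr15:99740944-99741036) lies between the 51-bp and the 129-bp exon. The skipping junction therefore leaves out both exons, and the PSI is not that of the 51-bp exon alone. The junction of the 51-bp with the 129-bp exon had 2 and 0 reads in cortex. Cortex was lowest, without overlap, but the difference of 0.0796 was under 0.1 and the adjusted p was 0.0567.

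Allelic PSI was read from the reads assigned to either strain, and asked whether C57BL/6J and SPRET/EiJ copies in the same libraries differ in splicing. Of 17 tests of member events, none of them in liver, 2 passed, both in Cers5. Neither passed when the library was added as a block to pair the alleles of an animal.

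In heart, the 107-bp exon of Cers5 had PSI of 0.502 and 0.518 on the C57BL/6J allele and 0.284 and 0.374 on the SPRET/EiJ allele. The C57BL/6J values were higher, without overlap, with a difference of 0.181 (adjusted p = 0.0181, quasi-binomial F test with limma moderation), where 7.73% of all events tested in heart passed. With the library as a block the adjusted p was 0.174, with events near 0 or 1 kept it was 0.0749, and the difference was 0.218 in library 1 and 0.144 in library 2. In cortex the same exon had 0.887 and 0.875 on the C57BL/6J allele and 0.916 and 0.897 on the SPRET/EiJ allele, a difference of -0.0253 that did not pass (adjusted p = 0.636). The differences were 0.0366 in ESC, 0.00731 in spleen, 0.00352 in kidney and 0.00252 in lung, and none of these passed.

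The difference between the allelic differences of heart and cortex was tested as an interaction added after the data were seen. It was 0.206 (p = 0.0288, adjusted p = 0.862 over 4134 events, quasi-binomial F test; 0.556% of events passed), and did not pass.

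In cortex, the 51-bp exon of Cers5 had PSI of 0.738 and 0.868 on the C57BL/6J allele and 1 and 1 on the SPRET/EiJ allele. Skipping rested on 10 and 4 C57BL/6J reads against 0 and 0 SPRET/EiJ reads. These are reads of the junction that also leaves out the 93-bp exon. The difference was -0.197 (adjusted p = 0.0130, quasi-binomial F test with limma moderation; 9.19% of events in cortex passed), but 0.154 was the adjusted p with the library as a block. The difference was -0.262 in library 1 and -0.132 in library 2. In spleen the C57BL/6J allele was at 0.918 and 0.926 and in ESC at 0.980 and 0.979, against 1 in every SPRET/EiJ library of both tissues, with differences of -0.0776 and -0.0208 that did not pass. Skipping reads of the C57BL/6J allele were 4 and 3 in spleen and 1 and 1 in ESC, so that the ESC values rest on a single read in each library.

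**Figure D3:**
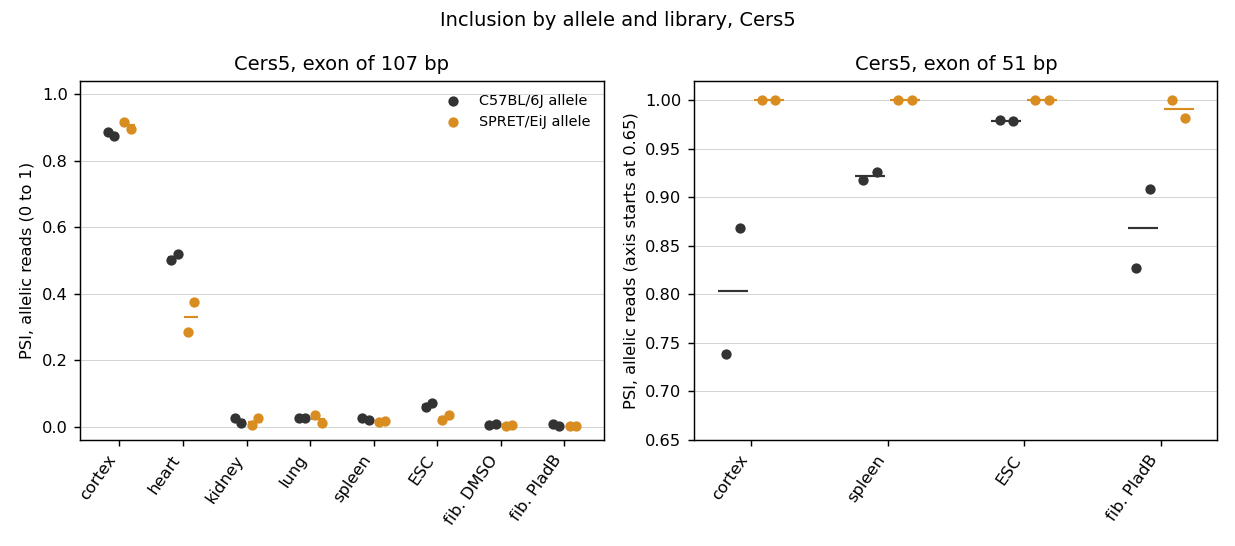
PSI from allelic reads (vertical axis) for the Cers5 exons of 107 bp (axis from 0 to 1) and 51 bp (axis starting at 0.65), with dark points for C57BL/6J and orange points for SPRET/EiJ, each point a library and each bar a mean. In heart the C57BL/6J points of the 107-bp exon lie at 0.502 and 0.518 and the SPRET/EiJ points at 0.284 and 0.374.

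In kidney, a 131-bp exon of Cers5 (chr15:99747037-99747167) differed by 0.0243 between alleles (adjusted p = 0.0321, quasi-binomial F test), under the difference of 0.1. No member event passed in kidney, lung, spleen or ESC and none was tested in liver, where 9.6% (kidney), 8.66% (lung), 7.21% (spleen), 7.48% (liver) and 2.8% (ESC) of all events did.

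The share of reads from each allele also differed between members and tissues, and is given as a description. It counts inclusion and skipping reads together without correction for effective length, so an allele with more inclusion yields more reads. It was read from a single event of each gene: 181 bp in Cers1, 119 bp in Cers2, 51 bp in Cers4, 107 bp in Cers5 and 131 bp in Cers6. For the 107-bp event of Cers5, C57BL/6J reads were 44.6% and 44.6% in kidney but 62.7% and 60.7% in heart, 62.8% and 59.0% in lung and 64.0% and 61.9% in spleen. All events together gave 48.3% to 52.1% in the tissues. In heart the skipping reads of the Cers5 event were 112 and 139 for C57BL/6J and 112 and 129 for SPRET/EiJ. Its inclusion reads there were 226 and 299 against 89 and 154. For Cers4 the shares were 48.8% and 29.3% in the 2 ESC clones, with exact 95% intervals of 43.4% to 54.3% and 25.2% to 33.6% that cover counting error only. The Cers5 event was at 55.6% and 54.1% in cortex, 51.8% and 54.6% in ESC and 72.7% and 57.9% in liver. The liver shares rest on only 24 against 9 and 22 against 16 reads. Their exact 95% intervals were 54.5% to 86.7% and 40.8% to 73.7%. Cers1 in cortex was at 49.9% and 51.1%. Cers2 ran from 46.3% to 52.5% over the libraries of kidney, lung, spleen and liver, and was at 63.2% and 53.7% in the ESC clones. Cers6 was at 40.8% and 34.8% in kidney, 47.1% and 44.2% in cortex and 51.2% and 58.3% in ESC. Over cortex, kidney, lung and spleen, Cers4 ran from 44.2% in a cortex library to 63.0% in a spleen library.

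In DMSO fibroblasts, Cers6 read 23.7% and 18.1% C57BL/6J and Cers5 63.6% and 61.2%, beside 53.3% and 53.1% over all events. After PladB the values were 33.0% and 25.5% for Cers6 and 73.4% and 71.9% for Cers5, beside 53.8% and 53.8% over all events. The exact 95% intervals of Cers6 in DMSO library 1 (19.4% to 28.5%) and PladB library 2 (19.6% to 32.1%) overlapped. These Cers6 shares are of the 131-bp event, and other Cers6 events held few C57BL/6J reads after PladB. Inclusion reads of the 107-bp exon were 9 and 10 for C57BL/6J against 32 and 63 for SPRET/EiJ. Those of the 157-bp exon were 2 and 4 against 21 and 34. Cers2 read 51.2% and 49.8% in DMSO and 49.3% and 52.8% after PladB, and Cers4 48.8% and 45.1% and then 43.8% and 51.7%. These shares were not tested.

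PladB lowered the TPM of all 5 members at 4 h, although Cers1, Cers2, Cers4 and Cers5 turned higher once libraries were centred on their median. As deposited, 88.8% of all genes passed. Cers6 was at 14.9 and 15.6 TPM in DMSO and 4.81 and 4.73 in PladB, Cers4 at 14.9 and 14.6 and at 6.97 and 7.20, and Cers1 at 2.65 and 2.54 and at 1.22 and 1.35. Cers2 was at 166 and 165 TPM and at 118 and 114, and Cers5 at 51.0 and 50.5 and at 37.8 and 36.1. No PladB library overlapped a DMSO library for any member, as for 94.5% of all genes tested, and the PladB libraries were the lower for 76% of all genes. On the log2(TPM + 0.1) scale the changes were -1.66 ± 0.059 (SE) for Cers6, -1.05 for Cers4, -0.96 for Cers1, -0.51 for Cers2 and -0.46 for Cers5, with adjusted p from 9.24e-06 to 0.000807 (limma).

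These changes are to be read against the rest of the table, where 73.1% of 13743 genes passed as lower and 15.7% as higher, and the median gene changed by -1.15. Against that median gene, Cers6 stood at -0.51, Cers4 at 0.10, Cers1 at 0.19, Cers2 at 0.63 and Cers5 at 0.69 on the log2 scale. Centring each library on the median of the genes above the filter in every library moved all changes by 1.34 and put the median gene of the table at 0.19. On that scale Cers6 stayed lower (-0.31), while Cers4 (0.29), Cers1 (0.38), Cers2 (0.83) and Cers5 (0.88) turned higher, beside 48.6% of genes passing as higher and 38.6% as lower. Of the other sphingolipid genes, 28 were expressed in fibroblasts and 27 passed, 21 lower and 6 higher, with a median of -1.16, against 9 lower and 16 higher when centred. The 3 genes of sphingomyelin synthesis fell, among them Sgms1 (-3.28) and Samd8 (-2.79), as did the ceramide kinase Cerk (-2.76) and the ceramide transfer protein Col4a3bp (-2.70). Acid ceramidase Asah1 rose by 0.50, the sphingosine kinase Sphk1 by 0.32, Sptssa by 0.26 and the desaturase Degs1 by 0.20.

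**Figure D4:**
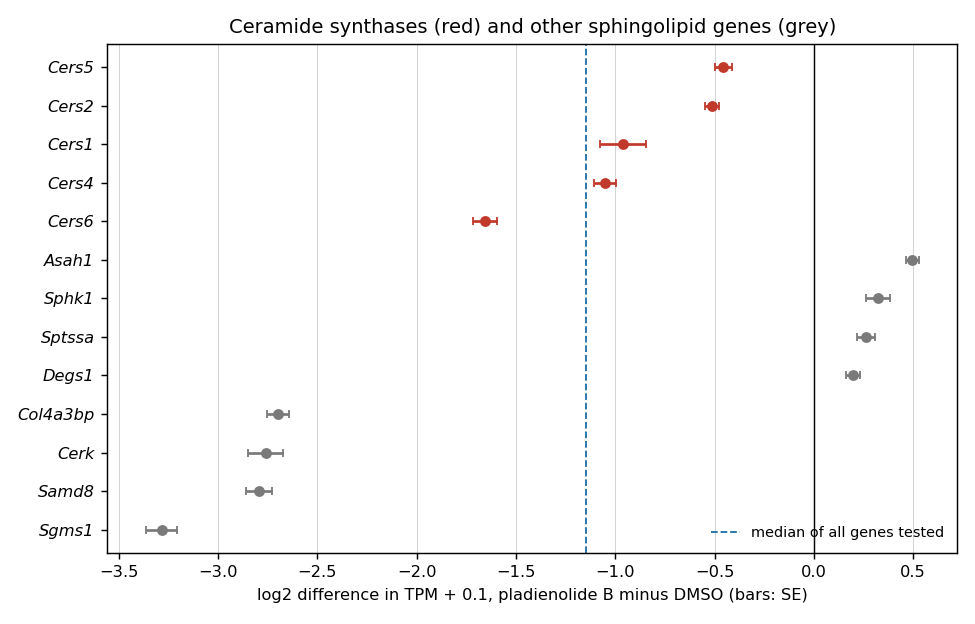
Log2 difference in TPM + 0.1 between PladB and DMSO fibroblasts (horizontal axis) with standard errors, for the 5 ceramide synthases in red and the 8 named sphingolipid genes in grey. The dashed line is the median of all 13743 genes at -1.15, and Cers6 at -1.66 is the member below it, while the other 4 members lie above it.

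In fibroblasts 1 member SE event was open to a test of PladB, since the other expressed events stayed above 0.9 or below 0.1. Of 54 member SE events listed, 49 were expressed, 46 of these stayed above 0.9 in every library, and 2 stayed below 0.1, the 107-bp exon of Cers5 (0.00445 and 0.00759 in DMSO, 0.00654 and 0.00255 in PladB) and the 24-bp exon of Cers6 (0.0181 and 0.0192 in DMSO, 0 and 0.0358 in PladB). The remaining event, a 157-bp exon of Cers6 (chr2:69105003-69105159), had PSI of 1 and 1 in DMSO and 1 and 0.778 in PladB. Its 22 skipping reads all came from PladB library 2, and the PladB libraries overlapped DMSO. The test gave -0.111 (adjusted p = 6.43e-05, quasi-binomial F test with limma moderation), among 47.6% of all events passing, 46.5% as lower and 1.03% as higher, but with PladB library 2 left out the difference was 0 and the adjusted p was 1.

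On the alleles, 2 member events were tested in fibroblasts, both after PladB. A 51-bp exon of Cers4, in the form with flanking exons of 58 and 107 bp, differed by -0.0806. The difference did not pass (adjusted p = 0.349, quasi-binomial F test). The skipping junction of this form also leaves out the 93-bp and 129-bp exons of Cers4. The 51-bp exon of Cers5 in PladB fibroblasts had PSI of 0.828 and 0.909 on the C57BL/6J allele and 1 and 0.982 on the SPRET/EiJ allele. Its skipping junction leaves out the 93-bp exon of Cers5 as well. The C57BL/6J allele was the lower, without overlap, as in cortex and spleen, with a difference of -0.123 (adjusted p = 0.0263, quasi-binomial F test; 11.7% of events passed) and an adjusted p of 0.129 with the library as a block. It was -0.172 in library 1 and -0.0731 in library 2. Over all reads the exon had PSI of 0.929 and 0.926 in DMSO, with 30 and 34 skipping reads, and 0.907 and 0.936 in PladB, with 31 and 27, so the treatments overlapped. The event was not listed for the alleles in DMSO, where 13.5% of events passed, and no member event had an allele by treatment test, in which 0.0978% of events passed.

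The 2 retained intron events of the members are introns that hold listed exons, so the spliced form counted there is the junction that leaves out those exons. The Cers4 intron (chr8:4519514-4520553) lies between the 51-bp and the 129-bp exon and holds the 93-bp exon. Its retained form had 47 and 47 reads in DMSO and 21 and 48 in PladB, and its spliced form 5 and 0 and then 10 and 10. The spliced reads are those of the junction that skips the 93-bp exon, beside which 918 and 970 reads in DMSO and 389 and 494 in PladB were of the form that includes it. The PSI of the 93-bp exon in that form was 0.991 and 1 in DMSO and 0.960 and 0.968 in PladB, a difference of -0.0314 without overlap, and it was left out of the tests as above 0.9 throughout. In the retained intron table, where reads through the 93-bp exon do not enter, the share of the retained form was 0.825 and 1 in DMSO and 0.512 and 0.706 in PladB. That difference of -0.303 passed (adjusted p = 0.0302, quasi-binomial F test with limma moderation), where 66% of introns passed, 5.33% as lower and 60.7% as higher, and it is not a measure of how much of the region stayed unspliced. The call was lost without DMSO library 2 (adjusted p = 0.205) or without PladB library 1 (0.128). The Cers2 intron (chr3:95321061-95321830) holds exons of 51, 58 and 93 bp, and its share of 0.980 or more in all 4 libraries rested on 103, 97, 41 and 103 retained reads against at most 1 read of the junction that leaves out all 3 exons. In the most read event of the 93-bp exon of Cers2, 5275 and 5552 reads in DMSO were of the form that includes it.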

How the data were processed

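RNA sequencing libraries of 7 tissues and of fibroblasts were used. The authors aligned reads with HISAT2 2.0.1 to mm10 and to a SPRET/EiJ genome made from it, and assigned reads to alleles. They deposited junction read counts by rMATS, both libraries of a group as a comma list, and effective lengths, each named other among units since a cell holds several whole numbers. The deposited TPM were made by the authors with featureCounts, which shared fragments over several genes equally. The tables' own p-values, FDR and inclusion level differences, the authors' comparisons, were not used.

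PSI came from the counts, each form divided by its effective length, with at least 20 reads in both libraries. Events above 0.9 or below 0.1 throughout were left out of tests. Inclusion was tested with a quasi-binomial F test, its dispersion moderated with limma 3.58.1 (R 4.3.3) towards a depth trend (4 df) and kept at 1 or more. Events passed at a Benjamini-Hochberg adjusted p below 0.05, over all autosomal events, and a PSI difference of at least 0.1, and allelic calls in tissues also needed the PSI of allelic and of all reads to lie within 0.1. TPM were tested with limma on log2(TPM + 0.1), for genes at a mean of at least 1 TPM in a group, and tissue pairs also needed a log2 difference of at least 1. Scripts were tested on simulated data.

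The libraries' order in a list was taken as a name. Alleles of a library share an animal or culture, so the replicate block pairs them, and deviations of the alleles correlated by 0.0377 to 0.443. The organs came from 2 animals, but no source used here says that a library number marks an animal. Deviations of same-numbered libraries correlated between tissues by -0.0795 to 0.0582 for PSI and -0.0336 to 0.169 for TPM, and between treatments by 0.00568 for PSI and -0.0246 for TPM, so numbers were not taken as pairs. The block and interaction fits leave groups with under 5 reads of the rarer form out of the dispersion, a form set after the first counts of calls were seen, and the first form is given as an alternative. Members and gene lists were chosen with earlier results of these data known. The text names all 5 members, each event that passed and the most read event of each gene, up to 4 sphingolipid genes per direction with the largest changes, and the closest profiles. Gene positions and names came from RefSeq on GRCm38.p6.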

Additional observations from a re-analysis of the deposited data

Results flagged for a closer look

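The allelic difference in PSI (C57BL/6J minus SPRET/EiJ) of the 107-bp exon of Cers5 had opposite signs in cortex and in 3 other tissues, in both libraries of each. It was -0.0287 and -0.0218 in the cortex libraries and 0.218 and 0.144 in heart, and the cortex mean minus the heart mean was -0.206, a difference that did not pass the interaction test (adjusted p = 0.862, quasi-binomial F test). Against spleen, at 0.00967 and 0.00495, the cortex mean differed by -0.0326. Against ESC, at 0.0373 and 0.0358, it differed by -0.0618. The differences against spleen and ESC were not tested. Within cortex (adjusted p = 0.636), spleen (0.689) and ESC (0.610) the allelic difference itself did not pass (quasi-binomial F test). Spleen rested on 10 and 10 SPRET/EiJ inclusion reads, at a PSI close to 0. In kidney and in lung the sign differed between the 2 libraries.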

How the results depend on the processing

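Alternatives were a minimum of 10 or 50 reads, events near 0 or 1 kept, a dispersion prior without depth trend, the replicate block, a pseudocount of 1, no filter on TPM, median-centred TPM, the limit on allelic against all reads removed in tissues or added in fibroblasts, and leaving out each library. The limit in fibroblasts, the centring on the median, the first form of the block (every group in the dispersion) and the interaction of allele and tissue were added after seeing the data. Both large tissue differences passed under every alternative run. Of the 2 allelic calls in tissues, 1 was left with a minimum of 50, 1 with events near 0 or 1 kept, and 0 with either form of the replicate block. The allelic call in fibroblasts became 0 with events near 0 or 1 kept and with either form of the block. The SE call after PladB became 0 with every group in the dispersion, and leaving out 1 library gave 0 to 1. The intron call became 0 with a minimum of 50, with the prior without depth trend (adjusted p = 0.0682) and with every group in the dispersion (adjusted p = 0.0517), and leaving out 1 library gave 0 to 1. The replicate block changed no other call of a member. In its first form the block gave 0 calls over all events in each of the 9 allelic comparisons and for SE events after PladB, against 4906 such SE events in its second form. After median-centring, the PladB changes of Cers1 (0.38), Cers2 (0.83), Cers4 (0.29) and Cers5 (0.88) reversed. Member pairs of tissues passing in TPM were 57 with a pseudocount of 1 and 58 median-centred, against 66. The tissue pairs of PSI were not fitted with the block. Among named values with a test, 454 kept their direction and their call or lack of one, 14 lost the call and 4 reversed. For PSI a call joins the adjusted p and the size of the difference, so the adjusted p alone could cross 0.05. Between kidney alleles, the 131-bp exon of Cers5 went from 0.0321 to 0.137 with the block (quasi-binomial F test). Over tissues, the 51-bp exon of Cers5 went from 0.0567 to 0.0498 with a minimum of 50 (same test). Of 38 allelic values left with 1 library and no test, 3 changed sign, all in Cers5 and none of them called. In liver the 107-bp exon of Cers5 rested on 33 and 38 reads, which limits that value.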
